A study of Mus musculus with 14 samples.

Results

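Liver sinusoidal endothelial cells (LSECs) sorted 7 days after one injection of carbon tetrachloride (CCl4) were compared with LSECs sorted 1 day after it, to see which early changes had reversed, which persisted and which appeared late. The comparison holds 6 of the 14 samples of the series, 4 at day 7 and 2 at day 1, and each early or late change is read against 4 healthy samples. The paper states that 2 further day 1 samples were left out for low RNA integrity (RIN) values. The part of RNA quality in the differences between the days was not tested. All mice were male Balb/c, aged 10 to 12 weeks in the labels. Injured mice received CCl4 diluted in mineral oil into the peritoneal cavity at 0.5 µL per g of body weight, and healthy mice received no injection, so the oil and the injection cannot be told apart from CCl4 in any comparison with them. The 4 samples of day 3 entered the model of the spread. No gene had to be chosen: all 26626 genes that passed the filter on low counts, of 54524 counted, were compared.

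LSECs are the fenestrated endothelium of the liver. They lack a continuous basement membrane, clear waste from portal blood through scavenger and Fc receptors such as stabilin 2 and CD32, and carry VEGF receptors. CCl4 is converted to a toxic radical in hepatocytes around the central vein, which die first, and clearance of debris, cell division and a temporary deposit of matrix by activated stellate cells follow. The sort kept cells with CD32 and left out those with F4/80, propidium iodide or ultraviolet autofluorescence, and, in the methods, those with CD45. All values describe the RNA of that sort, and in such bulk samples fewer cells of a type and less RNA per cell cannot be told apart.

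Expression is given as CPM, counts on a common library scale after TMM normalization, in replicate order. Total counts were 88665669 and 94626259 at day 1 and 46401496 to 86318681 at day 7. Changes are log2 fold changes of day 7 against day 1 with their standard error (SE) from edgeR's quasi-likelihood test, and calls were made where the adjusted p was under 0.05. The labels name no animal for each sample, so p-values measure the spread between these samples. The LSEC identity of the sort could be checked with 19 markers. Their summed level was 18686 to 22833 CPM at day 1 and 15183 to 20850.4 CPM at day 7, against 26049 to 30978 CPM in healthy LSECs, and none was at 0 in any sample of day 1 or day 7. Fcgr2b, the gene of CD32, had 1585 and 1798 CPM at day 1 and 2555, 1379.5, 1730.4 and 1706 CPM at day 7, and Adgre1, the gene of F4/80, had 50.2 and 27.8 CPM at day 1 and 47.5, 115, 126 and 109 CPM at day 7.

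Between day 1 and day 7, 2142 genes were called (8.04% of those tested), 971 higher at day 7 (3.65%) and 1171 lower (4.4%). The median log2 fold change of called genes was 1.61 in absolute size, while the median over all genes tested was 0.03. At an unadjusted p under 0.05 there were 6541 genes. The day 7 and day 1 samples did not overlap in 2134 of the called genes, against 43.5% of all genes tested. The shares of all genes tested, 3.65% higher, 4.4% lower and 43.5% without overlap, are the background for the counts of list members below. The share of called genes that were higher was 45.3%, and it depended on the scaling: it was 51.3% with RLE size factors and 56.0% with library size alone. The number of calls leaned on both day 1 samples, since it was 146 without day 1 replicate 1 and 343 without day 1 replicate 2. It was 1222, 1062 and 1110 without day 7 replicate 2, 3 or 4, and 3630 without day 3 replicate 4.

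Against healthy LSECs 1080 genes were called at day 1 (4.06% of those tested). Of these early changes 636 (58.9%, and 2.39% of genes tested) reversed, meaning that they were also called between day 7 and day 1 in the opposite direction. Another 143 (13.2%, and 0.537% of genes tested) persisted, called in the same direction at both days without a called return. The remaining 301 (27.9%) were open, with neither a called return nor a call at day 7. Against healthy LSECs at day 7, 846 genes were called (3.18%), 582 higher (2.19%) and 264 lower (0.992%). A further 320 genes (1.2% of those tested) appeared late: not called at day 1, called at day 7 against healthy LSECs and called in the same direction between the days. These classes are descriptions with no test, because the contrasts share the day 1, the day 7 and the healthy samples. A chance deviation of the day 1 samples would by itself give a return. One of the healthy samples would give a persisted change, and one of the day 7 samples a late change. Most genes called between the days were in none of these classes, since 1185 of the 2142 were called at neither day against healthy LSECs.

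**Figure D1:**
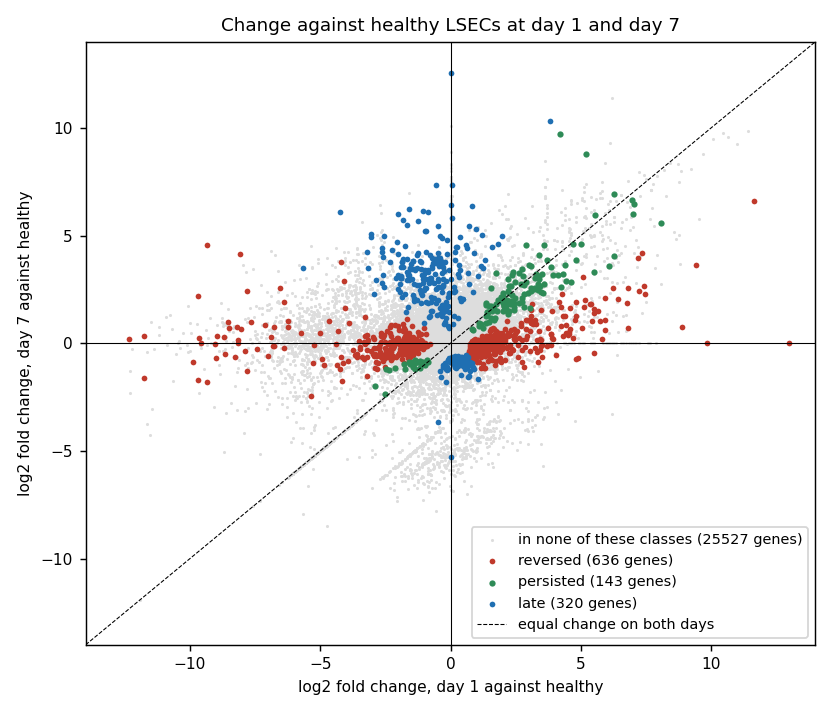
Each point is a gene, placed by its log2 fold change against healthy LSECs at day 1 (x axis) and at day 7 (y axis), with the 636 reversed genes in red, 143 persisted in green, 320 late in blue and all others in grey. Reversed genes lie along the horizontal zero line, persisted genes along the dashed diagonal and late genes along the vertical zero line.

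The direction of the early change divides these genes further. Of 644 genes called higher at day 1 (2.42% of those tested), 369 (57.3%) reversed and 117 (18.2%) persisted. Of 436 called lower (1.64%), 267 (61.2%) reversed and 26 (5.96%) persisted. Genes that had risen and returned had a median log2 fold change against healthy LSECs of 1.59 at day 1, 0.63 at day 3 and -0.03 at day 7 (338 genes not called at day 7), and genes that had fallen and returned had -2.12, -0.58 and -0.15 (257 genes). Persisted rises stayed at 2.43, 2.50 and 2.33. Late rises (217 genes) stood at -0.70 at day 1, 2.38 at day 3 and 3.16 at day 7, so most of their height was already there at day 3, whereas the 103 late falls went from 0.17 through -0.41 to -0.86. At day 7, 194 early rises (30.1%) and 97 early falls (22.2%) stood on the other side of the healthy level by their fold change, of which 15 reversed rises and 4 reversed falls were called there, while 16 and 6 returned in part and were still called on the side of day 1.

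With one day 1 sample left out of the fit, the other decided the class and the sample left out could be looked up separately. In the fit without day 1 replicate 1, 76 genes were reversed, and that replicate lay beyond all 4 day 7 samples, on the side of the sample kept, in 73 of them (96.1%). Without day 1 replicate 2, 197 genes were reversed and the replicate left out lay there in 192 (97.5%). Over all genes tested, the replicate left out lay beyond all 4 day 7 samples on the side of the one kept in 53.1% and 51.1%, and the reversed genes were chosen with the same day 7 samples, so the shares are descriptions. The median log2 gap to the day 7 mean was 2.93 in the sample kept and 2.74 in the one left out in the first case, and 2.45 and 1.80 in the second.

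Some genes of the endothelial surface that act on clotting returned from a high level at day 1. Thbd encodes thrombomodulin, which turns thrombin towards anticoagulant protein C (chr2:148404466-148408188, minus strand, GRCm38). It had 1488 and 1637 CPM at day 1 and 54.5, 98.8, 83.9 and 110.0 CPM at day 7, against 98.2 to 172 CPM in healthy LSECs (log2 fold change -4.17 ± 0.41, adjusted p = 0.000166). Both day 1 samples stood far above every day 7 sample, and the day 7 samples overlapped the healthy ones. Plaur, the urokinase receptor, followed with 562 and 489 CPM at day 1 and 68.9, 61.9, 76.8 and 82.2 CPM at day 7 (log2 fold change -2.86 ± 0.29, adjusted p = 0.000193). Entpd1, the ectonucleotidase CD39 that removes platelet-activating ATP and ADP, had 191 and 166 CPM at day 1 and 39.0, 20.3, 48.2 and 32.7 CPM at day 7 (log2 fold change -2.35 ± 0.45, adjusted p = 0.00863), and its adjusted p was 0.0888 without day 1 replicate 1. Of 18 hemostasis genes tested, 6 fell between the days and none rose, 4 of them in the reversed class, with a median of -0.50. Yet 8 of the 18 had positive fold changes, none of them called. At day 7, 4 of the 18 were called above healthy LSECs, against 2.19% of all genes tested, and 1 was in the persisted class. Over all genes tested 4.4% fell and 2.39% were reversed. The others that fell were Procr, the protein C receptor, Tfpi2 and F2r, the thrombin receptor, at -1.74, -1.32 and -1.29. The count was 2 without day 1 replicate 1.

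Inhbb, Angpt2 and Apln, which encode secreted ligands, were also in the reversed class, though the lists they come from moved both ways, with 4 rises and 1 fall in 24 TGF-beta and BMP genes and 3 rises and 2 falls in 20 genes of VEGF, Tie and tip cell signalling. Inhbb, the beta B subunit of activin and inhibin, had 559 and 535 CPM at day 1 and 9.98, 28.0, 20.7 and 33.7 CPM at day 7, with 31.9 to 35.4 CPM in healthy LSECs (log2 fold change -4.56 ± 0.40, adjusted p = 0.000128). The groups were more than an order of magnitude apart. Angpt2, a Tie2 ligand that loosens vessel walls, had 166 and 232 CPM at day 1 and 54.6, 33.1, 44.5 and 50.2 CPM at day 7 (log2 fold change -2.13 ± 0.26, adjusted p = 0.000654). Apln, the peptide apelin of sprouting tip cells, had 6.28 and 4.89 CPM at day 1 and 0.260, 0.517, 0.529 and 0.500 CPM at day 7 (log2 fold change -3.63 ± 0.55, adjusted p = 0.00226). Fosl1 and Map3k6, which act inside the cell, were also reversed. Fosl1, the AP-1 subunit Fra-1, rose from at most 0.968 CPM in healthy LSECs to 41.6 and 44.9 CPM at day 1 and was at 0.488, 0.881, 0.860 and 1.25 CPM at day 7 (log2 fold change -5.63 ± 0.52, adjusted p = 0.00015). It overlaps another annotated gene, so its counts are less certain. It was the only 1 of 20 immediate early genes called between the days. Map3k6, a kinase of the MAP kinase cascade, came down from 68.4 and 55.1 CPM to 0.935, 3.79, 1.94 and 2.45 CPM (log2 fold change -4.76 ± 0.62, adjusted p = 0.00101) but was still called above healthy LSECs at day 7 (log2 fold change 2.67, adjusted p = 0.0208).

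Not every marker of LSECs moved alike. Lyve1, the hyaluronan receptor of LSECs and lymphatic vessels, was high at day 1: 3020.3 and 3397 CPM at day 1 and 682, 473, 455 and 680.3 CPM at day 7, against 271 to 534 CPM in healthy LSECs (log2 fold change -2.49 ± 0.26, adjusted p = 0.000217). Clec1b, the podoplanin receptor CLEC-2, had 1179.7 and 1175 CPM at day 1 and 482, 284, 246 and 206 CPM at day 7 (log2 fold change -1.95 ± 0.41, adjusted p = 0.0134), an adjusted p that became 0.127 and 0.0865 without day 1 replicate 1 or 2. Kdr, the VEGF receptor VEGFR2, and Dnase1l3, a secreted nuclease, went the other way. Kdr had 592 and 761 CPM at day 1 and 1531, 1357, 1703 and 1601 CPM at day 7, and 2088 to 2436 CPM in healthy LSECs (log2 fold change 1.19 ± 0.34, adjusted p = 0.0452). No day 1 sample reached a day 7 sample, yet the call was kept in 3 of the 14 fits that left out 1 sample, with adjusted p of 0.425 and 0.216 without day 1 replicate 1 or 2. Dnase1l3 had 533 and 518 CPM at day 1 and 1212, 1048, 1732 and 1424 CPM at day 7 (log2 fold change 1.37 ± 0.29, adjusted p = 0.0137), and 0.187 and 0.143 without day 1 replicate 1 or 2. These 4 were the LSEC markers called of 19 tested, and the median of the list was -0.02. Stab2 had 1684 and 1405 CPM at day 1 and 1308, 1266, 1785 and 1716 CPM at day 7 (log2 fold change -0.02 ± 0.31, adjusted p = 0.988), and Clec4g, a C-type lectin, had 1987 and 3381 CPM at day 1 and 3833, 2102, 2504 and 2649 CPM at day 7 (log2 fold change 0.05 ± 0.31, adjusted p = 0.961), against 4639 to 6517 CPM in healthy LSECs.

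Nrp1, Hey1, Adgrg6 and Mecom were called lower at day 1 than in healthy LSECs and rose again. Nrp1, a VEGF co-receptor, had 237 and 404 CPM at day 1 and 974, 702, 913 and 1087 CPM at day 7 and 1478 to 1763 CPM in healthy LSECs (log2 fold change 1.52 ± 0.39, adjusted p = 0.0303). The day 7 samples lay between those of day 1 and the healthy ones without touching either. Hey1, a target of Notch, had 2.19 and 1.77 CPM at day 1 and 8.18, 11.2, 8.14 and 10.8 CPM at day 7 (log2 fold change 2.27 ± 0.36, adjusted p = 0.00298), and Adgrg6, an adhesion G protein-coupled receptor, had 2.03 and 2.17 CPM at day 1 and 11.8, 9.62, 15.5 and 14.7 CPM at day 7 (log2 fold change 2.62 ± 0.40, adjusted p = 0.00239), in both cases with the day 7 samples within or above the healthy range of 5.54 to 10.7 and 4.38 to 11.2 CPM. Mecom, a zinc finger transcription factor of endothelium, had 9.46 and 12.9 CPM at day 1 and 33.8, 23.3, 36.3 and 30.3 CPM at day 7 (log2 fold change 1.47 ± 0.39, adjusted p = 0.0359). Prox1, a transcription factor that marks lymphatic endothelium and hepatocytes, had 3.36 and 2.78 CPM at day 1 and 8.53, 12.3, 12.3 and 16.6 CPM at day 7 (log2 fold change 2.02 ± 0.52, adjusted p = 0.0321) but was called at neither day against healthy LSECs. Without day 1 replicate 1 the adjusted p of these 5 genes was 0.398, 0.0678, 0.0628, 0.389 and 0.276, and without day 1 replicate 2 it was 0.125, 0.0705, 0.0391, 0.182 and 0.261. Vegfd, a ligand of VEGF receptors and a late rise, had 0.155 and 0.286 CPM at day 1 and 0.779, 8.82, 1.21 and 3.28 CPM at day 7 (log2 fold change 3.99 ± 0.90, adjusted p = 0.0185). Day 7 replicate 2 was the highest and replicate 1 the lowest, as in the stellate cell markers Lrat and Reln below. The part of stellate cell RNA in the rise of Vegfd was not tested. Over 15 periportal and arterial genes 2 rose and 2 fell, among them Gja4, the gap junction protein connexin 37, at 709 and 574 CPM at day 1 and 182, 159, 94.6 and 136 CPM at day 7 (log2 fold change -2.16 ± 0.43, adjusted p = 0.0101), and Dll1, a Notch ligand, at -1.43 (adjusted p = 0.0151).

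Markers of vascular endothelium were summed at 8066 to 8797 CPM at day 1, 2965 to 3872 CPM at day 7 and 4321 to 5251 CPM in healthy LSECs. At day 1 most of that sum was Fabp4, the fatty acid carrier of capillary endothelium, with 5199 and 5290.4 CPM at day 1 and 783, 511, 1005 and 777 CPM at day 7 (log2 fold change -2.77 ± 0.43, adjusted p = 0.00256), all day 7 samples being well below those of day 1. Fabp5, a related carrier, had 346 and 236 CPM at day 1 and 277, 312, 434 and 309 CPM at day 7 and was not called (log2 fold change 0.19 ± 0.42, adjusted p = 0.831). Ecscr, a surface protein of endothelium, fell by 1.69 on the log2 scale. Cd34, a sialomucin, and Sparcl1 rose by 1.49 and 4.23. Of 16 markers 3 fell and 2 rose, and the median was -0.16. Vwf, von Willebrand factor, had 16.8 and 14.6 CPM at day 1 and 7.90, 29.5, 23.0 and 22.3 CPM at day 7 (log2 fold change 0.40 ± 0.76, adjusted p = 0.802), and Vwa1 had 1.75 and 3.32 CPM at day 1 and 0.437, 1.45, 1.23 and 1.19 CPM at day 7 (log2 fold change -1.23 ± 1.07, adjusted p = 0.514), so neither was called. Among adhesion molecules for leukocytes 3 of 14 fell. Selp, P-selectin, had 186 and 203 CPM at day 1 and 34.3, 31.9, 38.7 and 65.0 CPM at day 7 (log2 fold change -2.19 ± 0.59, adjusted p = 0.038), and Jam2, a junctional adhesion molecule, had 636 and 956 CPM at day 1 and 134, 182, 159 and 189 CPM at day 7 (log2 fold change -2.26 ± 0.43, adjusted p = 0.00793). Without day 1 replicate 1 and 2 their adjusted p was 0.213 and 0.181 for Selp and 0.0437 and 0.0862 for Jam2.

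**Figure D2:**
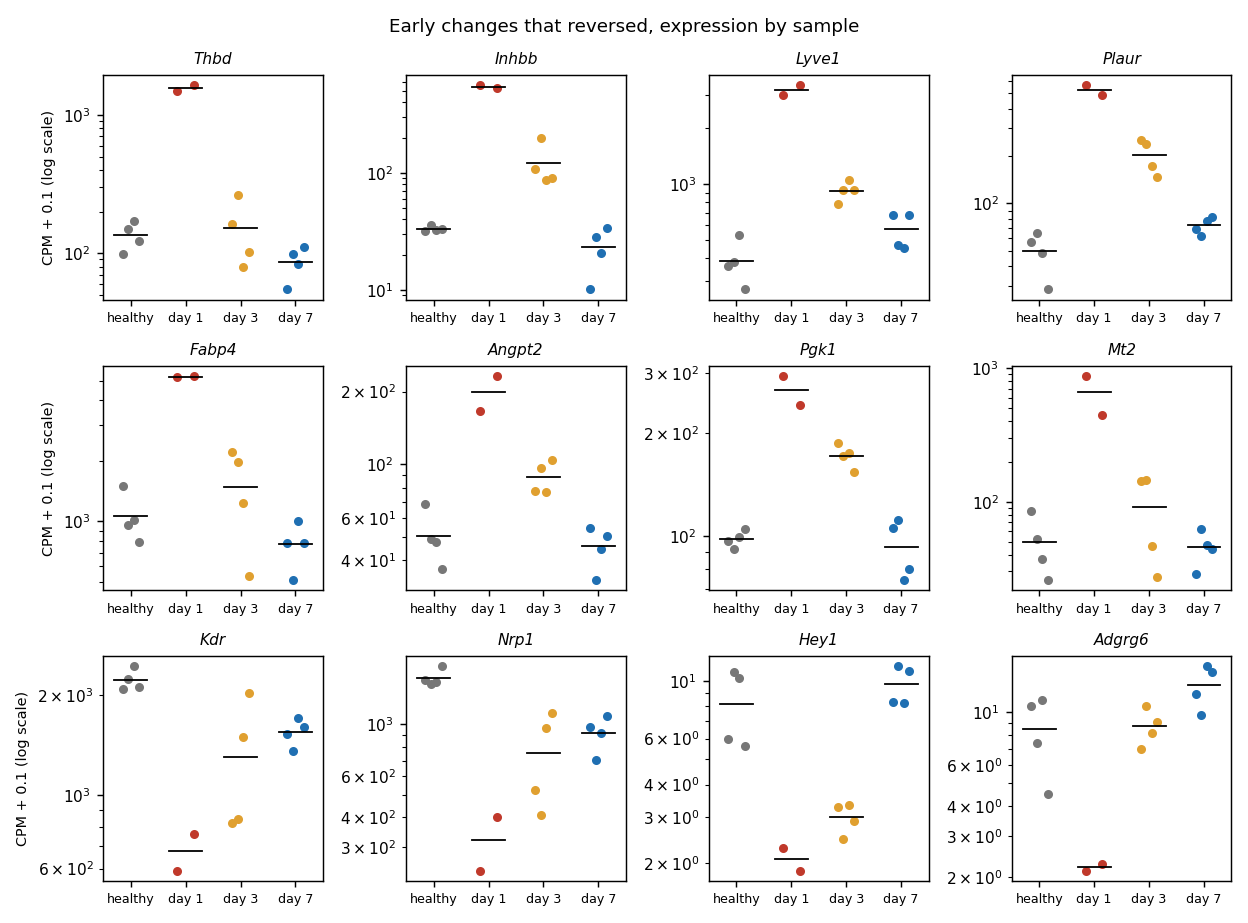
CPM plus 0.1 on a logarithmic axis for 12 genes of the reversed class, 1 point per sample and a line at the group mean, from healthy LSECs to day 7. In the 8 genes of the upper rows both day 1 points stand above all day 7 points, and in Kdr, Nrp1, Hey1 and Adgrg6 both stand below them.

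Genes that answer to metals and oxidants, and genes of glycolysis, fell together between the days. Of 16 genes of the Nrf2 and metal response list 8 fell and none rose, against 4.4% of all genes tested that fell, with a list median of -0.91. Mt2, a metallothionein that binds zinc and copper, had 875 and 445 CPM at day 1 and 28.7, 62.1, 47.3 and 43.7 CPM at day 7 (log2 fold change -3.86 ± 0.61, adjusted p = 0.00285), and Mt1 had 4049 and 2388 CPM at day 1 and 522, 624, 666 and 483 CPM at day 7 (log2 fold change -2.49 ± 0.49, adjusted p = 0.00966). Hmox1, which breaks down heme, had 815 and 280.1 CPM at day 1 and 118, 150.5, 124 and 173 CPM at day 7 (log2 fold change -1.95 ± 0.40, adjusted p = 0.0112), with day 1 replicate 1 far above the other. Slc7a11, the cystine importer, had 34.5 and 12.9 CPM at day 1 and 4.31, 3.37, 2.58 and 2.35 CPM at day 7 (log2 fold change -2.91 ± 0.56, adjusted p = 0.00813). The list kept 1 call without day 1 replicate 1 and 5 without replicate 2.

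Of 16 glycolysis genes 6 fell, all 6 in the reversed class, and the median was -0.78. Over all genes tested 4.4% fell and 2.39% were reversed. Pgk1, phosphoglycerate kinase, had 294 and 241 CPM at day 1 and 106, 111, 74.4 and 79.9 CPM at day 7 and 91.4 to 105 CPM in healthy LSECs (log2 fold change -1.53 ± 0.19, adjusted p = 0.000754). Slc2a1, the glucose carrier GLUT1, had 101 and 41.0 CPM at day 1 and 16.7, 24.4, 17.9 and 16.2 CPM at day 7 (log2 fold change -1.92 ± 0.31, adjusted p = 0.00314), and Slc16a3, the lactate exporter MCT4, had 113 and 37.9 CPM at day 1 and 7.06, 18.1, 15.3 and 10.7 CPM at day 7 (log2 fold change -2.57 ± 0.54, adjusted p = 0.0128). Gapdh, often used as a reference gene, had 1168 and 819 CPM at day 1 and 360.2, 391, 366 and 413 CPM at day 7 (log2 fold change -1.38 ± 0.22, adjusted p = 0.00303), so its day 1 samples were both above every day 7 sample. The list kept 1 call without day 1 replicate 1, where the adjusted p of Slc2a1 was 0.205, of Slc16a3 0.329 and of Gapdh 0.113.

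Promoters of 2 of these genes, and of Cxcl3 and Cenpf below, are printed because each holds the motif counted in its list. They run from 250 bases before to 50 bases after the annotated start, from RefSeq on GRCm38.p6, and read 5′ to 3′ on the gene's strand. Capitals mark matches on either strand, so a match to the other strand shows its reverse complement. In Mt2 (chr8:94172368-94172667, plus strand) they mark 4 metal response motifs, TGCGCNC or TGCACNC. In Pgk1 (chrX:106186850-106187149, plus strand) they mark 2 copies of the hypoxia response core ACGTG. In Cxcl3 (chr5:90785851-90786150, plus strand) they mark 2 overlapping matches to the NF-kB motif, and in Cenpf (chr1:189688037-189688336, minus strand) 2 CCAAT boxes and 1 TTTGAA, the cell cycle homology region (CHR).
Mt2: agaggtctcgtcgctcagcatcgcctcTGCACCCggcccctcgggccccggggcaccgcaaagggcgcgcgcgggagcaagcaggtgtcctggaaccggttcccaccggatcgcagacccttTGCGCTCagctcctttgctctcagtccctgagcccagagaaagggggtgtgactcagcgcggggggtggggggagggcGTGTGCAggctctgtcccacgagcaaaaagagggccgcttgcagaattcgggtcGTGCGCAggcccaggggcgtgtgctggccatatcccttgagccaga
Pgk1: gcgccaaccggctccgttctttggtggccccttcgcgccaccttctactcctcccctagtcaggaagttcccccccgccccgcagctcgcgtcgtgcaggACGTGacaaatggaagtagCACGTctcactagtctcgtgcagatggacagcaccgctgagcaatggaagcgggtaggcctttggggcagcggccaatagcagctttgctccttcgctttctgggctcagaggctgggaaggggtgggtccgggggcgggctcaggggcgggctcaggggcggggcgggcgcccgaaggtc
Cxcl3: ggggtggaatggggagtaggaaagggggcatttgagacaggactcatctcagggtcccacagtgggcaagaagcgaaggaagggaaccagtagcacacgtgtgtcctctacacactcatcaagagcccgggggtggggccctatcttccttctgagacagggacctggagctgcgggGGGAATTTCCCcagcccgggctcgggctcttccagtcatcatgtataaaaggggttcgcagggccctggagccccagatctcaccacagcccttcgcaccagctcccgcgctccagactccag
Cenpf: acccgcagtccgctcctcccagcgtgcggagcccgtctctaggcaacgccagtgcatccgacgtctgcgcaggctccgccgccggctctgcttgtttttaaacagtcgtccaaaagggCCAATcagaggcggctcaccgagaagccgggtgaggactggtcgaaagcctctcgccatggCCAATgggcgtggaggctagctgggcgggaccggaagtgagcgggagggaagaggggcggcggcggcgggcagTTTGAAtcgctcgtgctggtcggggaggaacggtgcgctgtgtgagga

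Of 32851 promoters in the RefSeq table, 25.7% held a metal response motif, 19.6% ACGTG, 4.5% an NF-kB motif, 37.4% CCAAT and 17.9% TTTGAA. In the lists the shares were 6 of 16 promoters for the metal response motif (Nrf2 and metal response), 13 of 24 for ACGTG (glycolysis), 5 of 16 for the NF-kB motif (chemokines), and 24 of 31 each for CCAAT and TTTGAA (mitosis). Over the 18485 promoters of tested genes the shares were 32.4% for the metal response motif, so that 6 of 16 (37.5%) is close to it, 23.0% for ACGTG, 5.20% for the NF-kB motif, 37.1% for CCAAT and 13.8% for TTTGAA. Genes can have several promoters and the lists are small, so these shares are descriptions. Over all reversed rises, ACGTG was in 25.2% of 297 promoters.

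Transcripts typical of neutrophils were among the steepest falls. S100a8 and S100a9, which form calprotectin, had 2139.8 and 736 CPM at day 1 and 45.8, 28.9, 29.9 and 39.8 CPM at day 7 and 3692 and 1595 CPM at day 1 and 81.8, 46.5, 67.3 and 90.0 CPM at day 7 (log2 fold changes -5.32 and -5.21, adjusted p = 0.0391 and 0.0422). Mmp8, neutrophil collagenase, had 254 and 89.8 CPM at day 1 and 10.8, 7.19, 4.17 and 2.73 CPM at day 7 (log2 fold change -4.79 ± 1.06, adjusted p = 0.0165). Cxcr2, the receptor of neutrophil-attracting chemokines, had 142 and 70.2 CPM at day 1 and 4.75, 3.26, 2.87 and 5.64 CPM at day 7 (log2 fold change -4.68 ± 1.29, adjusted p = 0.0415). Day 1 replicate 1 was the higher of the pair in each, and no day 7 sample reached either. These were the 4 of 20 neutrophil and monocyte markers called, all lower, with a list median of -2.38. Lyz2, lysozyme of myeloid cells, was not called and stood the other way, at 1701 and 1509 CPM and 6837, 9304, 9056 and 3919 CPM. The summed level of the list was 4772 to 9196 CPM at day 1, 4281 to 9839 CPM at day 7 and 593 to 1441 CPM in healthy LSECs, and no marker was at 0 at either day. The count fell to 0 without day 1 replicate 1, to 1 without day 1 replicate 2 and to 0 without day 7 replicate 3. It was 1 without healthy replicate 1, 2 or 3 or day 7 replicate 1, 2 or 4, 2 without day 3 replicate 2 and 7 without day 3 replicate 4.

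Some genes of inflammatory signals fell too, but not the lists as a whole: 3 of 24 chemokine genes fell and 2 rose, and 1 of 27 cytokine and NF-kB feedback genes fell, against 4.4% of all genes tested. The part of the neutrophil markers in these falls was not tested. Cxcl3, a chemokine for neutrophils (chr5:90786103-90789600, plus strand), had 97.5 and 25.0 CPM at day 1 and 3.07, 1.48, 1.04 and 2.60 CPM at day 7 and 0.298 to 0.999 CPM in healthy LSECs (log2 fold change -4.90 ± 0.78, adjusted p = 0.00279). Cxcl2 had 1604 and 701 CPM at day 1 and 229, 411, 349.6 and 329.8 CPM at day 7 (log2 fold change -1.81 ± 0.43, adjusted p = 0.0229), and Ccl2, which draws monocytes, had 256 and 202 CPM at day 1 and 31.7, 58.0, 42.3 and 65.4 CPM at day 7 (log2 fold change -2.22 ± 0.63, adjusted p = 0.0482). Il1r2, a decoy receptor for interleukin 1, had 458 and 171 CPM at day 1 and 1.97, 4.29, 5.16 and 8.93 CPM at day 7 (log2 fold change -5.95 ± 1.35, adjusted p = 0.0185). Day 1 replicate 1 was again the higher of the pair in all 4. Slfn4, a gene of myeloid cells and interferon responses, had 87.1 and 69.9 CPM at day 1 and 2.56, 2.59, 3.37 and 2.52 CPM at day 7 (log2 fold change -4.83 ± 0.77, adjusted p = 0.00291). Of 24 interferon-stimulated genes 3 fell, Bst2, tetherin, with 489 and 763 CPM at day 1 and 170.5, 167, 217 and 236 CPM at day 7 (log2 fold change -1.66 ± 0.27, adjusted p = 0.00314), Ifitm3, which hinders virus entry, at -1.36 and Usp18, which removes ISG15, at -1.17. Without day 1 replicate 1 the adjusted p was 0.0712 for Cxcl3, 0.426 for Cxcl2, 0.308 for Ccl2 and 0.163 for Il1r2. Pf4, platelet factor 4, had 255 and 84.0 CPM at day 1 and 10.8, 17.9, 24.3 and 19.7 CPM at day 7 (log2 fold change -3.22 ± 0.48, adjusted p = 0.00213).

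Other steep falls were in genes that had no more than 2.16 CPM in any healthy sample. Ctsj, a cathepsin known mainly from placenta, had 64.7 and 91.2 CPM at day 1 and 0.769, 1.29, 1.79 and 1.87 CPM at day 7 (log2 fold change -5.77 ± 0.98, adjusted p = 0.00417), against 0 to 0.282 CPM in healthy LSECs, and was still called above them at day 7. At day 3 it had 26.4, 54.5, 10.0 and 10.3 CPM. Entpd3, an ectonucleotidase, had 11.6 and 4.71 CPM at day 1 and 0, 0, 0 and 0.102 CPM at day 7 (log2 fold change -8.11 ± 1.87, adjusted p = 0.0202). Car4, a membrane-bound carbonic anhydrase of capillaries, had 84.1 and 62.0 CPM at day 1 and 6.72, 0.797, 0.198 and 0.931 CPM at day 7 (log2 fold change -5.07 ± 1.42, adjusted p = 0.044). Calca, the gene of calcitonin and CGRP, had 18.6 and 15.4 CPM at day 1 and 0.239, 0.0979, 0.243 and 0.670 CPM at day 7 (log2 fold change -5.75 ± 1.31, adjusted p = 0.0193), and its early rise was not called (log2 fold change 4.00, adjusted p = 0.0916). Of these 4 only Ctsj was called without day 1 replicate 1, where the adjusted p was 0.0358, 0.183, 0.275 and 0.137 in that order.

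Hepatocyte transcripts were nearly absent at day 1 and present at day 7, and they were among the largest rises. Rgn, regucalcin, had 0 and 0.0330 CPM at day 1 and 63.4, 109, 20.2 and 83.7 CPM at day 7 (log2 fold change 11.86 ± 2.35, adjusted p = 0.00956). Akr1c6, a hydroxysteroid dehydrogenase of liver, had 0.0718 and 0.110 CPM at day 1 and 61.3, 111, 26.7 and 79.7 CPM at day 7 (log2 fold change 9.55 ± 2.08, adjusted p = 0.0152), and Hpd, of tyrosine breakdown, had 0.0718 and 0.319 CPM at day 1 and 83.8, 168, 17.1 and 63.1 CPM at day 7 (log2 fold change 8.71 ± 2.06, adjusted p = 0.0226). In each the groups were orders of magnitude apart, while healthy LSECs spread over a wide range, 1.11, 1.14, 5.18 and 54.0 CPM for Rgn and 5.29, 3.87, 9.37 and 190.4 CPM for Hpd, with healthy replicate 4 the highest. Adh4, Bbox1 and Cpn2 had no count in either day 1 sample. Against a floor of 3 counts per library, their mean level at day 7 was at least 255-fold, 186-fold and 184-fold higher. Cpz, a carboxypeptidase of matrix and no hepatocyte marker, also had no count at day 1, and with 1.04, 17.3, 3.13 and 7.14 CPM at day 7 it was at least 207-fold higher. Agxt also rose, as did Cyp1a2, Car3 and Ttr at 8.98, 8.14 and 5.85.

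All 15 hepatocyte markers had a positive log2 fold change, with a median of 5.51. The days did not overlap in 14, against 43.5% of all genes tested, but only Hpd and Ttr were called. The summed level of the list was 53.6 to 231 CPM at day 1, 1139.8 to 8534 CPM at day 7 and 385 to 15559 CPM in healthy LSECs, the upper end being healthy replicate 4. Without that replicate 14 of the 15 were called. Without healthy replicate 1 or 2 the count was 4, without either day 1 sample it was 0, and it was 1 without day 3 replicate 1, 2 or 3 or without any 1 of the day 7 samples. Albumin (Alb) alone had 12.3 and 59.8 CPM at day 1 and 1450.0, 2691, 281 and 764 CPM at day 7. Genes of this kind counted as reversed by the rule, and the part of hepatocyte RNA in those calls was not tested.

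Mitotic genes were higher at day 7. Of 33 mitosis genes 22 rose and none fell, where 3.65% of all genes tested rose. The days did not overlap in 31, against 43.5% of all genes tested, and the median was 2.26. Mki67, the proliferation marker Ki-67, had 17.7 and 8.67 CPM at day 1 and 71.8, 116, 86.6 and 52.6 CPM at day 7 and 13.5 to 48.1 CPM in healthy LSECs (log2 fold change 2.63 ± 0.64, adjusted p = 0.0246). Birc5, survivin, had 6.36 and 3.14 CPM at day 1 and 40.3, 40.5, 31.7 and 14.9 CPM at day 7 (log2 fold change 2.74 ± 0.55, adjusted p = 0.00982). Cenpf, a kinetochore protein (chr1:189640606-189688086, minus strand), had 6.63 and 3.81 CPM at day 1 and 50.1, 62.0, 28.2 and 20.2 CPM at day 7 (log2 fold change 2.94 ± 0.66, adjusted p = 0.0175), and Kif11, the spindle motor Eg5, had 1.36 and 0.892 CPM at day 1 and 12.3, 12.5, 7.89 and 5.54 CPM at day 7 (log2 fold change 3.08 ± 0.76, adjusted p = 0.0264). Every day 7 sample of these 4 genes was above both day 1 samples. Against healthy LSECs none of the 4 was called at either day, so these changes lie outside the 3 classes: the day 1 samples were within or below the healthy range and the day 7 samples within or above it. Nusap1, a spindle protein, rose by 2.79 on the log2 scale. None of the 30 DNA replication genes was called by edgeR, against 5 at an unadjusted p under 0.05, 5 called by DESeq2 and 6 by limma-voom, and their median was 0.13. Mcm2, of the replicative helicase, had 20.8 and 26.6 CPM at day 1 and 16.4, 26.0, 24.6 and 26.5 CPM at day 7 (log2 fold change -0.02 ± 0.51, adjusted p = 1). The mitosis count was 1 without either day 1 sample, and 14, 12 and 13 without day 7 replicate 1, 2 or 3.

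Proteasome genes moved in the opposite sense. Of 39 tested 22 fell and none rose, where 4.4% of all genes tested fell. The days did not overlap in 37, against 43.5% of all genes tested, and the median was -1.10. Psmd14, the deubiquitinating subunit of the lid, had 187 and 168 CPM at day 1 and 69.1, 55.5, 51.5 and 48.2 CPM at day 7 and 78.1 to 106 CPM in healthy LSECs (log2 fold change -1.66 ± 0.27, adjusted p = 0.00303). Psmc6, an ATPase of the base, had 182 and 174 CPM at day 1 and 79.3, 65.8, 56.5 and 64.1 CPM at day 7 (log2 fold change -1.42 ± 0.30, adjusted p = 0.0135), and the core subunits Psma5 and Psma6 had 237 and 220.2 CPM at day 1 and 103, 84.9, 76.5 and 81.3 CPM at day 7 and 364 and 361 CPM at day 1 and 149.9, 125, 112 and 121 CPM at day 7 (log2 fold changes -1.40 and -1.51). The day 1 samples were above the healthy range in all 4 and the day 7 samples below it. Neither day was called against healthy LSECs for any of the 4, and no gene of the list was in the reversed class. The count was 0 without day 1 replicate 1, 3 without day 1 replicate 2, and 13, 11 and 12 without day 7 replicate 2, 3 or 4. Among stress genes, 2 of 16 p53 targets fell, Cdkn1a, the cell cycle inhibitor p21, with 763 and 683 CPM at day 1 and 164, 175, 322 and 357 CPM at day 7 (log2 fold change -1.51 ± 0.36, adjusted p = 0.023), and Bax, which opens mitochondria in cell death, with 203 and 296 CPM at day 1 and 99.7, 88.3, 95.2 and 78.8 CPM at day 7 (log2 fold change -1.46 ± 0.23, adjusted p = 0.00247). Of 20 heat shock and unfolded protein genes 1 fell, near the 4.4% of all genes tested that fell. The list medians were -0.05 for the p53 targets and -0.06 for the heat shock and unfolded protein genes.

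The changes that persisted were led by Gpnmb, a membrane glycoprotein of phagocytes that digest lipid. It was called at day 1 against healthy LSECs (log2 fold change 4.22, adjusted p = 0.0162) and rose further, with 26.9 and 5.31 CPM at day 1 and 543, 1095, 916 and 398 CPM at day 7 and 0.0299 to 1.74 CPM in healthy LSECs (log2 fold change 5.52 ± 1.19, adjusted p = 0.0145). The steps did not overlap. Olr1, the oxidized LDL receptor LOX-1 of endothelium and macrophages, had 15.1 and 10.3 CPM at day 1 and 8.05, 8.99, 3.22 and 5.69 CPM at day 7 and 0.183 to 0.623 CPM in healthy LSECs (log2 fold change -0.97 ± 0.47, adjusted p = 0.219). Steap2, a metalloreductase, had 41.3 and 28.8 CPM at day 1 and 20.9, 26.5, 18.6 and 14.9 CPM at day 7 and 1.06 to 2.36 CPM (log2 fold change -0.79 ± 0.33, adjusted p = 0.151). For both, all injured samples were above all healthy ones, and the day 7 values were not called apart from day 1. Lcn2, lipocalin 2 of neutrophils and injured liver, had 280.4 and 141 CPM at day 1 and 40.2, 83.8, 6.79 and 15.7 CPM at day 7 (log2 fold change -2.53 ± 0.90, adjusted p = 0.101), and was called above healthy LSECs at both days.

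Persisted falls were few, 26 genes, with a median log2 fold change against healthy LSECs of -1.42 at day 1 and -0.94 at day 7. Ntf3, the neurotrophin NT-3, had 9.01 and 8.57 CPM at day 1 and 8.72, 10.7, 6.22 and 13.6 CPM at day 7, against 39.8 to 61.7 CPM in healthy LSECs (log2 fold change 0.16 ± 0.46, adjusted p = 0.886). It stayed at about the same level at both days, well under every healthy sample. Pcp4l1 had 9.19 and 18.5 CPM at day 1 and 33.7, 17.0, 22.2 and 31.1 CPM at day 7, against 67.4 to 139.5 CPM (log2 fold change 0.91 ± 0.39, adjusted p = 0.166), and Msrb2, a methionine sulfoxide reductase of mitochondria, had 8.83 and 11.2 CPM at day 1 and 15.4, 12.2, 11.9 and 10.7 CPM at day 7, against 23.2 to 32.5 CPM (log2 fold change 0.32 ± 0.23, adjusted p = 0.422). Ces2g, a carboxylesterase, and Cyp2j9, a P450 enzyme, had day 7 values between the other groups, 36.3, 30.4, 43.3 and 54.9 CPM and 5.62, 4.56, 5.69 and 5.54 CPM, with 1.13 and 0.96 against day 1 (adjusted p = 0.0911 and 0.0869).

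Among the 217 late rises were 11 of the 13 fibrillar and associated collagens. All 13 fibrillar and associated collagen genes rose between day 1 and day 7, with a median of 6.59. Col1a1, the main chain of type I collagen, had 2.32 and 1.16 CPM at day 1 and 21.3, 1214, 174 and 259.7 CPM at day 7 and 1.82 to 4.41 CPM in healthy LSECs (log2 fold change 7.91 ± 1.76, adjusted p = 0.0172). Col3a1 had 9.08 and 3.65 CPM at day 1 and 107, 2094, 344 and 599 CPM at day 7 (log2 fold change 6.95 ± 1.34, adjusted p = 0.00843), and Col6a3, a chain of the beaded type VI filaments, had 0.694 and 0.407 CPM at day 1 and 9.86, 206, 37.3 and 58.1 CPM at day 7 (log2 fold change 7.14 ± 1.20, adjusted p = 0.0039). Col1a2 and Col5a3 rose by 7.19 and 8.15 on the log2 scale. The day 7 samples of the first 3 were far above day 1 but spread over more than an order of magnitude, replicate 2 the highest and replicate 1 the lowest. Enzymes that shape matrix rose as well, 7 of 26 against 3 that fell. Mmp2, gelatinase A, had 1.47 and 0.837 CPM at day 1 and 4.38, 70.4, 18.3 and 47.7 CPM at day 7 (log2 fold change 4.93 ± 1.00, adjusted p = 0.0109), and Loxl1, a cross-linking oxidase, had 0.227 and 0.330 CPM at day 1 and 1.03, 25.2, 4.85 and 14.7 CPM at day 7 (log2 fold change 5.35 ± 1.06, adjusted p = 0.00966), while Mmp23 and Bmp1, the procollagen C-proteinase, rose by 5.44 and 5.01 on the log2 scale. The 7 became 0 without day 1 replicate 1 and 1 without day 1 replicate 2. Without either day 1 sample none of the 13 collagens was called, with adjusted p of 0.204 and 0.179 for Col1a1.

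Cpxm1, Tbx20 and Scube1 also rose late. Cpxm1, a carboxypeptidase-like secreted protein, had 0.730 and 0.627 CPM at day 1 and 8.67, 113, 14.9 and 28.8 CPM at day 7 (log2 fold change 5.93 ± 1.03, adjusted p = 0.00467). Tbx20, a T-box transcription factor known from the heart, had 0.323 and 0.0660 CPM at day 1 and 1.36 to 35.6 CPM at day 7 (log2 fold change 6.21 ± 1.20, adjusted p = 0.00867). Scube1, a secreted and cell surface protein, had 0.0359 and 0.242 CPM at day 1 and 0.728, 16.9, 3.73 and 9.01 CPM at day 7 (log2 fold change 5.75 ± 1.53, adjusted p = 0.0359). In each, day 7 replicate 2 was the highest and replicate 1 the lowest, and none of the day 7 samples reached down to day 1.

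Markers of stellate cells rose with the collagens. Of 16, which include 3 of the collagens, 11 rose and none fell, 10 in the late class, with a median of 3.86. Over all genes tested 3.65% rose and 1.2% were late. The summed level of these markers was 155 to 202 CPM at day 1, 522 to 7967 CPM at day 7 and 186 to 321 CPM in healthy LSECs, and none of the markers was at 0 in every day 7 sample. Lrat, which stores retinol as ester, had 2.75 and 2.64 CPM at day 1 and 10.1, 125, 22.8 and 69.7 CPM at day 7 (log2 fold change 4.40). Reln, reelin, which stellate cells and lymphatic endothelium make, had 3.37 and 1.70 CPM at day 1 and 11.3, 161, 69.2 and 129 CPM at day 7 (log2 fold change 5.19 ± 0.91, adjusted p = 0.00502). Day 7 replicate 2 was the highest and replicate 1 the lowest in both, the order seen in the collagens. Outside this list, Cxcl12, Sparcl1 and Wt1, the last a factor of mesothelium and stellate cells, rose by 3.82, 4.23 and 7.09 on the log2 scale. They were on the lists of chemokines, vascular endothelium and mesothelial cells, in that order. The part of stellate cell RNA in the rise of the collagens was not tested, and the count of 11 was 0 without either day 1 sample.

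Genes of the basement membrane split. Among the laminin genes, Lama2 and Lamb1 rose late. Lama2 had 0.120 and 0.132 CPM at day 1 and 1.04, 19.0, 6.17 and 9.91 CPM at day 7 (log2 fold change 6.15 ± 1.22, adjusted p = 0.00977). Lamb1 had 0.981 and 0.693 CPM at day 1 and 1.88, 34.3, 12.5 and 20.8 CPM at day 7 (log2 fold change 4.37 ± 0.97, adjusted p = 0.0165). Type IV collagen chains moved both ways. Col4a5 had 0.0598 and 0 CPM at day 1 and 0.426, 8.71, 2.07 and 4.51 CPM at day 7 (log2 fold change 7.00, adjusted p = 0.0144) and Col4a4 had 0.646 and 0.726 CPM at day 1 and 1.22, 1.89, 3.64 and 3.43 CPM at day 7 (log2 fold change 1.89 ± 0.51, adjusted p = 0.0385), both higher at day 7, whereas Col4a1 and Col4a2, the pair found in most basement membranes, had negative fold changes, called for Col4a2 alone. Col4a1 had 1284 and 1254 CPM at day 1 and 275, 619, 596 and 703 CPM at day 7 and 367 to 509 CPM in healthy LSECs (log2 fold change -1.21 ± 0.38, adjusted p = 0.0663), and its early rise was called (log2 fold change 1.57, adjusted p = 0.0325). Col4a2 had 906 and 993 CPM at day 1 and 255, 480.4, 454 and 496 CPM at day 7 and 236 to 319.9 CPM (log2 fold change -1.17 ± 0.34, adjusted p = 0.0498), which put it in the reversed class by a narrow margin: without day 1 replicate 1 or 2 its adjusted p was 0.323 or 0.304, and 2 of the 14 fits without 1 sample kept the call. Both day 1 values of Col4a1 and of Col4a2 were above all day 7 values. In Lama2, Lamb1 and Col4a5 day 7 replicate 2 was the highest and replicate 1 the lowest, as in Lrat and Reln. In Col4a4 replicate 3 was the highest. The part of stellate cell RNA in these rises was not tested. Over 18 basement membrane genes 5 rose, 2 of them in the late class, and 1 fell, the median being 1.17. The 5 became 0 without either day 1 sample and 3 without day 7 replicate 3 or 4.

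Genes of phagocytes that appear in injured liver rose late as well. Atp6v0d2, a proton pump subunit of macrophages and osteoclasts, had 1.28 and 0.0660 CPM at day 1 and 42.8, 75.5, 88.7 and 42.2 CPM at day 7 (log2 fold change 6.53 ± 1.38, adjusted p = 0.0134). Trem2, a lipid receptor of macrophages, had 13.6 and 9.25 CPM at day 1 and 67.0, 104, 117 and 47.3 CPM at day 7 (log2 fold change 2.87 ± 0.59, adjusted p = 0.0118). Spp1, osteopontin, had 291 and 221 CPM at day 1 and 2557, 5238, 1634 and 567 CPM at day 7 (log2 fold change 3.29 ± 0.85, adjusted p = 0.0317), with day 7 replicate 4 the lowest of its group and still above day 1. Spp1 was also on the list of cholangiocyte markers. Of 15 injury macrophage markers 5 rose and none fell, 4 were late and 4 persisted, with a median of 1.04. The summed level was 1381 to 2206 CPM at day 1, 2233 to 8998 CPM at day 7 and 526 to 734 CPM in healthy LSECs. Of 12 Kupffer cell markers none was called by edgeR (1 at an unadjusted p under 0.05, 1 called by DESeq2 and 2 by limma-voom), nor were any of 18 markers of T, B and NK cells (5, 3 and 2 in the same order). Clec4f had 359.6 and 230.3 CPM at day 1 and 109, 138, 223 and 349 CPM at day 7 and Cd3e had 8.61 and 5.64 CPM at day 1 and 10.5, 4.41, 12.5 and 15.9 CPM at day 7. F4/80 and CD45 were negative gates of the sort, and none of the injury macrophage markers was at 0 at either day. The count of 5 was 0 without either day 1 sample and 3 without day 7 replicate 2. Of the 7 MHC class II genes 1 rose, Ciita, their master activator, with 6.94 and 3.21 CPM at day 1 and 17.1, 25.5, 23.8 and 31.1 CPM at day 7 (log2 fold change 2.26 ± 0.59, adjusted p = 0.0339).

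Late falls were smaller and held several abundant endothelial genes. Gpihbp1, which carries lipoprotein lipase across capillary endothelium, had 2110.3 and 3086 CPM at day 1 and 1185, 765, 1340.0 and 1229 CPM at day 7 and 2523 to 4622 CPM in healthy LSECs (log2 fold change -1.20 ± 0.34, adjusted p = 0.045). Sgk1, a kinase induced by serum and glucocorticoids, had 2266 and 2464 CPM at day 1 and 1493, 954, 943 and 995 CPM at day 7 (log2 fold change -1.11 ± 0.26, adjusted p = 0.0218). In both the day 1 samples were at or near the healthy range and all day 7 samples were below it. Esam, an adhesion molecule of endothelial junctions, had 1457 and 1666 CPM at day 1 and 649, 357, 409 and 480.4 CPM at day 7 (log2 fold change -1.72 ± 0.23, adjusted p = 0.00112), the day 1 values being above the healthy range of 829 to 949 CPM and the day 7 values below it. Tcn2, the vitamin B12 carrier transcobalamin 2, had 1087 and 1675 CPM at day 1 and 625, 365, 372 and 549 CPM at day 7 (log2 fold change -1.53 ± 0.29, adjusted p = 0.00778), and Ada, adenosine deaminase, had 171 and 389 CPM at day 1 and 73.5, 48.3, 45.8 and 71.2 CPM at day 7 (log2 fold change -2.23 ± 0.39, adjusted p = 0.00481), with day 1 replicate 2 the higher in both. Atf4, a factor of the integrated stress response, fell by 1.15, Atp6v1h, of the proton pump, by 1.19 and Mrgbp, of a histone acetyltransferase complex, by 1.28 on the log2 scale. Of these 8 genes Esam and Atp6v1h were called in all 14 fits without 1 sample. Without day 1 replicate 1 and 2 the adjusted p was 0.148 and 0.328 for Gpihbp1 and 0.249 and 0.237 for Sgk1.

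**Figure D3:**
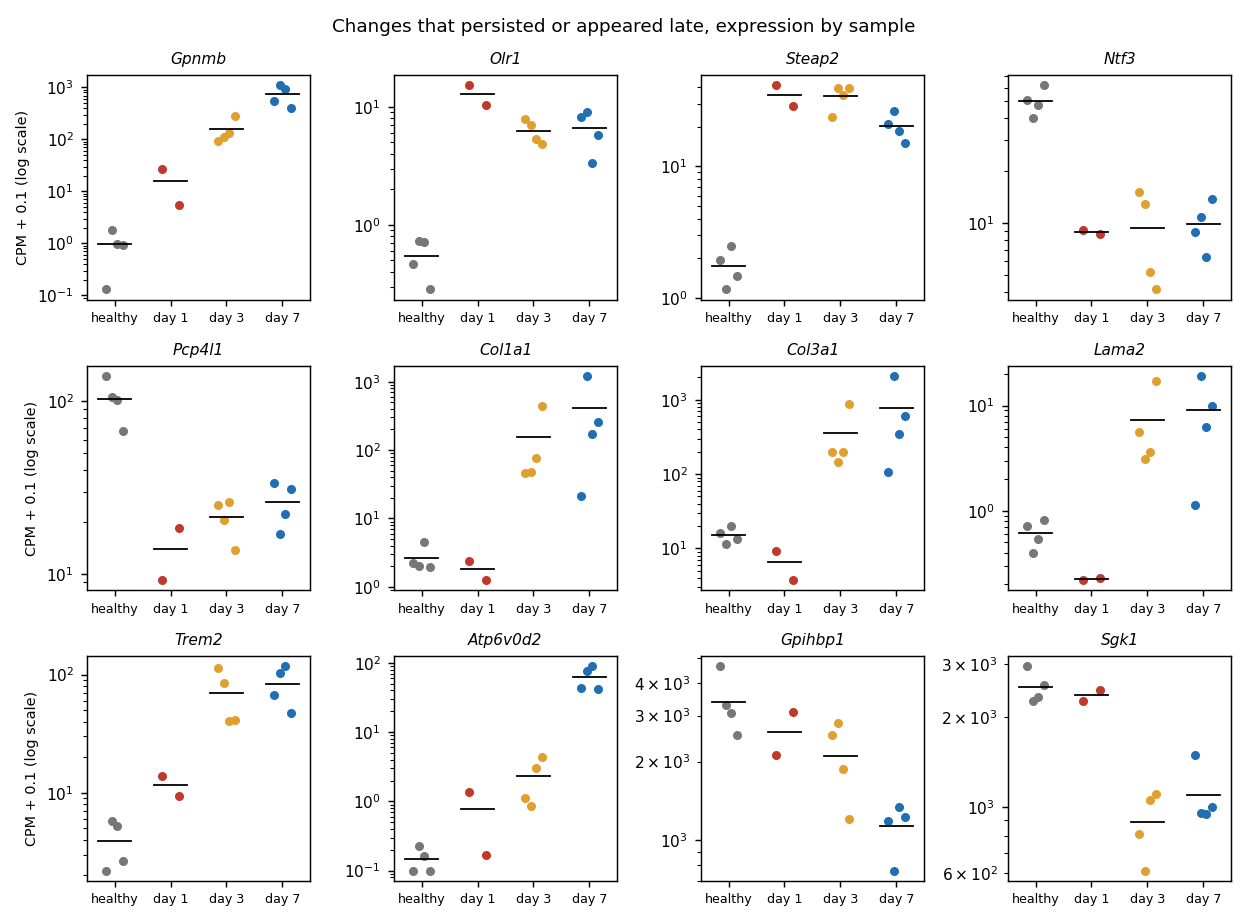
CPM plus 0.1 on a logarithmic axis for 5 persisted genes (Gpnmb to Pcp4l1) and 7 late genes (Col1a1 to Sgk1), 1 point per sample and a line at the group mean. Persisted genes stay on one side of the healthy points on both days, collagens and macrophage genes climb from day 1 to day 7, and Gpihbp1 and Sgk1 are lowest at day 3 or day 7.

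The remaining lists held 5 calls or fewer each, against 8.04% called of all genes tested. Of 26 lysosome and proton pump genes 3 fell and 2 rose, among them Ctsb, cathepsin B, with 6713 and 6974 CPM at day 1 and 2936, 3205, 2794 and 2454 CPM at day 7 (log2 fold change -1.27 ± 0.18, adjusted p = 0.00194). Of the TGF-beta and BMP genes that rose, Bmp4 stood at 2.98 and Ltbp1, which binds latent TGF-beta, at 4.28. The largest rise was Ltbp2, a matrix protein of the same family as Ltbp1, with 0.0957 and 0 CPM at day 1 and 1.93, 33.1, 5.60 and 9.73 CPM at day 7 (log2 fold change 8.02 ± 1.62, adjusted p = 0.0108). Cholesterol synthesis had 1 fall in 20 (Hsd17b7, -1.68), nuclear genes of the respiratory chain 2 in 36 (Cycs, cytochrome c, -1.70, and Atp5b, of ATP synthase, -0.98; median -0.57) and cytosolic ribosomal proteins 1 in 45 (Rps2, -0.89; median -0.70). Yet 35 of the 36 respiratory chain genes and 44 of the 45 ribosomal protein genes had negative fold changes. The days did not overlap in 32 and 38 of them, against 43.5% of all genes tested. DESeq2 called 3 in each list, and limma-voom 26 and 23. Of 10 pericentral angiocrine genes 1 rose and 1 fell, of 18 LSEC transcription factors 2 rose, of 10 erythroid and platelet markers 1 fell, and of 8 dendritic cell markers 1 fell. Of 6 cholangiocyte and 6 mesothelial markers 1 rose in each, Spp1 and Wt1, both given above. Spp1 is the same gene that was counted among the injury macrophage markers.

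**Figure D4:**
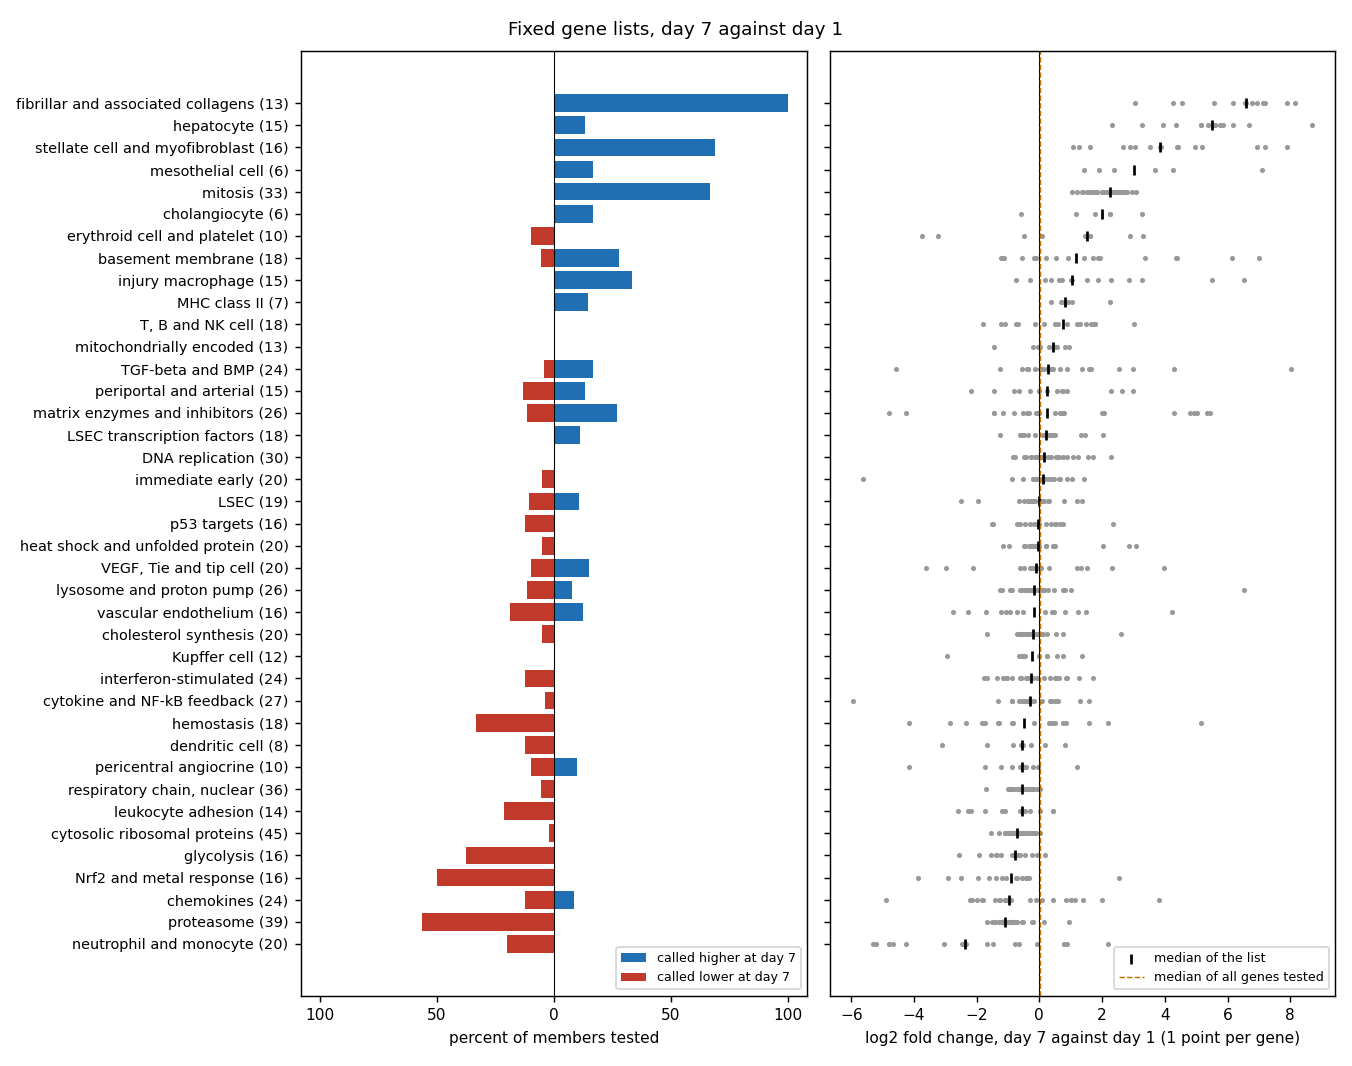
Left, the percent of tested members of each gene list (number in brackets) called higher (blue) or lower (red) at day 7 than at day 1; right, the log2 fold change of every member with the median of the list as a black tick. Collagens, stellate cell markers and mitosis genes lie to the right with most members called, hepatocyte markers lie there with few called, and proteasome, metal response and glycolysis genes lie to the left.

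No gene of the 13 encoded in mitochondria and listed was called by edgeR, against 2 at an unadjusted p under 0.05, 1 called by DESeq2 and 3 by limma-voom, with a median of 0.45. The first of the list, mt-Nd1, a subunit of complex I, had 2631 and 1983 CPM at day 1 and 1712, 1832, 2645 and 1761 CPM at day 7 (log2 fold change -0.22 ± 0.28, adjusted p = 0.686). The 13 listed genes summed to 14944 to 21610 CPM at day 1 and 16698 to 34258 CPM at day 7, ranges that overlap. The share of the whole mitochondrial chromosome covers 37 genes and not only these 13. It was 4.49% and 3.51% of counts at day 1 (4.00% ± 0.696, SD, n = 2) and 5.28%, 8.32%, 9.87% and 5.91% at day 7 (7.35% ± 2.13, SD, n = 4), with 3.35% ± 0.272 (SD, n = 4) in healthy LSECs. In this share the day 1 and day 7 samples did not overlap, yet a two-sided exact permutation test gave p = 0.133, the smallest value it can give with 2 samples against 4.

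**Figure D5:**
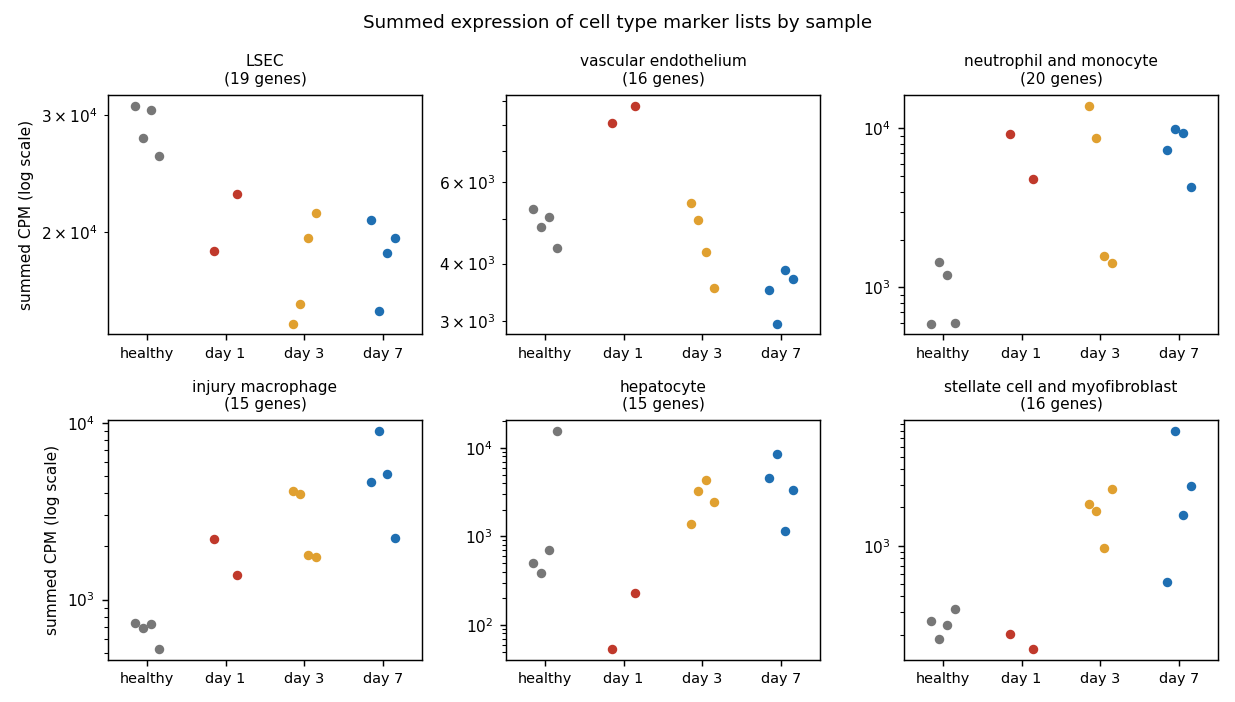
Summed CPM of 6 cell type marker lists on logarithmic axes, 1 point per sample in each group. Stellate cell and injury macrophage markers are higher at day 7 than at day 1 in every sample, hepatocyte markers lowest at day 1, vascular markers highest at day 1, and neutrophil and monocyte markers overlap between the days.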

How the data were processed

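RNA of FACS-sorted LSECs was amplified with SMARTseq v4 and sequenced. The authors mapped reads with STAR to GRCm38.p6, used StringTie for assembly, and deposited raw counts per Ensembl gene, without normalization. The annotation release and the use of strand are not given in the sources used here, so paralogs and overlapping genes (55 of the 134 named) are uncertain, and without molecular identifiers floors (3 counts per library) cover counting error only. GENCODE vM21 held 54495 of the 54524 genes and gave names, positions and overlaps.

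Genes were filtered with filterByExpr (minimum count 10, total 15), scaled with TMM and tested with edgeR 4.0.16 (R 4.3.3) in one quasi-likelihood model of 4 group means over 14 samples, with Benjamini-Hochberg adjustment over 26626 genes. The SE was derived from the log2 fold change and its F statistic. DESeq2 1.42.0, limma 3.58.1 and other settings were tried, and the code was tested on simulated data. The labels give no batch.

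The comparison and the gene lists were chosen with earlier results of these data known. Genes were named by rule: among called, protein-coding genes that overlap no other gene, are no Gm or Rik model and do not overlap between the groups (mean of at least 5 CPM in the higher), the 10 largest rises and falls; in each class and direction the 5 whose smaller defining change is largest; up to 4 called members per list, or the first member; and 11 genes of interest to the study. Members of a list given with only a log2 fold change, and Alb, Lyz2, Adgre1 and Lrat, were named after their values were seen. Fcn3 had no match, and 2 genes named by the rule are not reported here. All 14 columns were used.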

Additional observations from a re-analysis of the deposited data

Results flagged for a closer look

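In 270 groups of 4 samples (healthy and day 7, for each named gene and the mitochondrial share), the highest or lowest sample of 29 stood apart from the others by more than Dixon's 95% critical value, which chance does in about 1 of 20 groups. This was 10.7% of the groups, and 15 of the 29 were healthy replicate 4. In that sample hepatocyte transcripts were far above the next healthy sample: Adh4 28.3 CPM against 1.35, Agxt 63.9 against 2.13, Akr1c6 127 against 7.24, Bbox1 19.2 against 0.666, Car3 1094 against 50.3, Cpn2 9.13 against 0.572, Cyp1a2 35.4 against 2.52, Hpd 190.4 against 9.37, Rgn 54.0 against 5.18 and Ttr 903 against 44.3 CPM. The sample was also apart in Bmp1 (9.20 CPM), Col5a3 (3.18 CPM), Cxcl12 (21.3 CPM), Tcn2 (1178 CPM) and, on the low side, S100a9 (9.99 CPM against 69.6).

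Day 7 replicate 1 stood apart with 6.72 CPM of Car4, 1493 CPM of Sgk1 and, on the low side, 0.260 CPM of Apln. Day 7 replicate 2 was low in Cyp2j9 (4.56 CPM) and high in Bmp1 (57.3 CPM) and Col5a3 (14.5 CPM), and replicate 3 was high in Slfn4 (3.37 CPM) and mt-Nd1 (2645 CPM). Healthy replicate 3 was high in Col1a1 (4.41 CPM) and Cpz (0.718 CPM), a carboxypeptidase, and healthy replicate 2 was low in Ltbp2 (0.0587 CPM). For genes with no count in the other 3 samples, the values were 0.102 CPM of Entpd3 in day 7 replicate 4, 0.0624 CPM of Entpd3 in healthy replicate 3 and 0.0798 CPM of Car4 in healthy replicate 1.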

How the results depend on the processing

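The number of genes called between the days (2142) was 4576 with DESeq2, 7610 with limma-voom, 4966 without day 3 in the fit and 4465 with only the groups compared, and 568 at an adjusted p under 0.01. In the same order the reversed class (636) held 1862, 2678, 1646, 1281 and 206 genes, the persisted class (143) 437, 946, 476, 406 and 30, and the late class (320) 1092, 3227, 1543, 1032 and 32. Of the 2142 genes DESeq2 called 2134 and limma-voom 2134. Without a filter on low counts 95 genes persisted. The share of called genes higher at day 7 (45.3%) was 62.1% with DESeq2, 56.0% with library size only, 55.4% with at least 10 counts in every sample and 30.6% at an adjusted p under 0.01. The cause of these shifts was not tested. With the median of all genes at 0.03, library size alone moved it to 0.15.

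Leaving out 1 sample gave 146 to 3630 called genes, 76 to 1124 reversed, 37 to 275 persisted and 22 to 823 late, and 21.2% to 58.4% higher. The lowest counts were all without day 1 replicate 1 and the highest, apart from that share, without day 3 replicate 4. The persisted class was 86 without day 1 replicate 2, 47, 73 and 63 without healthy replicate 1, 2 or 3 and 67, 80 and 94 without day 7 replicate 2, 3 or 4. The late class was 28 without day 1 replicate 2, 85, 88, 101 and 542 without healthy replicate 1, 2, 3 or 4, and 592, 86, 133 and 133 without day 7 replicate 1 to 4. The reversed class was 421 and 402 without day 7 replicate 3 or 4. A fit without a day 1 sample assumes that the one left varies like the other groups. Of 115 named genes called between the days, 15 were called in all 14 fits that left out 1 sample. In every other alternative that tested them 69 were called, not counting the stricter limits on adjusted p and on fold change.

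The labels number the samples of each group alike. The same-numbered pairs deviated together with correlations of -0.232 to 0.0962, none of 18 above 0.1, so the numbers were not taken as a pairing. With the replicate block 1084 genes were called (344 reversed, 62 persisted, 144 late).

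Genes without a call that changed sign were Stab2 (0.032 with DESeq2, 0.036 with limma-voom, 0.032 with RLE, 0.096 with library size only and 0.099 with at least 10 counts; -0.11 to 0.16 without 1 sample), Mcm2 (0.037, 0.057, 0.037, 0.092 and 0.10 in the same order, -0.14 to 0.20), Clec4g (-0.017 with limma-voom and -0.017 without a filter; -0.23 to 0.53 without 1 sample), Fcgr2b (-0.044 to 0.26), mt-Nd1 (-0.37 to 0.046) and Fabp5 (-0.022 to 0.54). With 2 samples at day 1, small changes of low or variable genes may not be detectable.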

Other observations

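Day 3 values, which entered the comparison only through the spread and the medians of classes, show how some genes travelled between the days, and are given without a test. Mki67 had 90.0, 51.8, 186 and 209 CPM at day 3 and Cenpf 30.5, 16.5, 62.5 and 69.7 CPM, so replicates 3 and 4 were above every day 7 sample in both genes. Psma5 had 244, 237, 132 and 77.9 CPM and Psma6 356, 390.1, 161 and 95.5 CPM, where replicates 1 and 2 were close to the day 1 samples and replicate 4 was below or within the range of day 7. S100a8 had 992, 589.9, 12.8 and 3.21 CPM. Atp6v0d2 had 1.02, 0.748, 2.95 and 4.30 CPM, all far below day 7, whereas Trem2 had 114, 84.5, 40.0 and 40.8 CPM, with replicates 1 and 2 in the range of day 7 and the others just under it. Kdr had 821, 848, 1493 and 2031 CPM and Nrp1 526, 410.0, 968 and 1117 CPM, with replicates 3 and 4 the higher in both.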
